A study of Mus musculus with 7 samples.

Results

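The immunity-related GTPases (IRG family) were followed through 7 droplet single-cell RNA libraries of a mouse glioma. The members were chosen by gene symbol: Irgm1, Irgm2, Igtp, Iigp1, Ifi47, Tgtp1, Tgtp2, Gm4951 and F830016B08Rik, which are 9 of the 32285 genes counted. All 9 had UMIs (unique molecular identifiers, 1 per captured RNA molecule) in every library.

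IRG proteins are large GTPases made by mouse cells in response to interferon, above all interferon-gamma. They are best known for coating and breaking the vacuoles in which intracellular parasites and bacteria live. Irgm1, Irgm2 and Igtp encode the regulatory proteins, which sit on the cell's own membranes and hold the effector GTPases inactive there. Iigp1, Ifi47, Tgtp1 and Tgtp2 encode effectors that load onto vacuoles, and Gm4951 and F830016B08Rik are close relatives of Iigp1 in the same gene cluster. In a tumour these genes are mainly known as readouts of interferon reaching a cell.

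The tumours came from NSCG, a glioma line with EGFRvIII, loss of the Arf/Ink4a locus and an mCherry tag, grown in C57BL/6 mice aged 7 to 10 weeks and taken at about day 14. Each library pooled whole tumours of at least 2 mice and is 1 replicate, and the spread between mice is not seen. UT (1 library) was untreated, IgG (2 libraries) received an IgG2b isotype control at 10 mg/kg, and BP (2 libraries) received the anti-VEGF antibody B20 at 5 mg/kg with anti-PD-L1 at 10 mg/kg. These antibodies were injected every 3 days for 3 rounds, from day 6 or 7. BPI (1 library) received the B20 and anti-PD-L1 pair plus the PI3K inhibitor IPI-145 at 10 mg/kg daily, and CD40 (1 library) received 100 µg of an anti-CD40 antibody in 2 doses, with or without a dendritic cell vaccine, which the labels do not settle.

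Of the 9 members, 6 lie on chromosome 11 (GRCm38). There Irgm1 spans 48861968 to 48871683, Tgtp1 48985327 to 48994172 and Tgtp2 49057194 to 49064206, all on the minus strand. Ifi47 spans 49076587 to 49096974, Igtp 58199556 to 58207591 and Irgm2 58199618 to 58222782, all on the plus strand. Igtp and Irgm2 overlap each other on 1 strand. Promoters of the 6 chromosome 11 members were listed in RefSeq (GRCm38.p6). Within the 250 bases before the start, 5 of these 6 held GAAA, any 2 bases and GAAA on either strand, the core of the interferon-stimulated response element (ISRE), against 2.98% of 32851 listed promoters. The letters TTC, any 3 bases and GAA, the core of the gamma-activated site (GAS) of interferon-gamma target genes, were in 4 of the 6, against 7.02% of all. Both motifs were in 4 of the 6, against 0.332% of all, and Ifi47 held neither in this window. The other 3 members had no promoter entry. Tgtp1 and Tgtp2 are near copies, and the Irgm2 and Igtp stretches are nearly the same, so these matches are not separate observations. The stretches of the 5 promoters with a match are shown because they carry motifs of the interferon pathway whose genes are measured alongside the members. Capitals mark the matches, each line runs 5′ to 3′ on the gene's strand, and a match is a description of letters, not a measured binding site.
Irgm1, chr11:48871425-48871474, minus strand: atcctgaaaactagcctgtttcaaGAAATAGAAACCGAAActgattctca
Irgm2, chr11:58214883-58214932, plus strand: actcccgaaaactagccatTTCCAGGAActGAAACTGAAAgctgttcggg
Igtp, chr11:58199492-58199541, plus strand: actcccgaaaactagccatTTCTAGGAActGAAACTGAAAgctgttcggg
Tgtp1, chr11:48992304-48992353, minus strand: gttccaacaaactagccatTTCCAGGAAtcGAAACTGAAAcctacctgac
Tgtp2, chr11:49064263-49064312, minus strand: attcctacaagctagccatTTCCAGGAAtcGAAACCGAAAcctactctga
In Irgm1 the capitals hold 2 overlapping ISRE matches and no GAS, while in the other 4 a GAS match stands just before the ISRE match.

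The other 3 members lie together on the plus strand of chromosome 18 (GRCm38): Gm4951 at 60212080 to 60247820, F830016B08Rik at 60293380 to 60303016 and Iigp1 at 60376027 to 60392634.

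After filtering, 48588 cells remained, 5373 to 9650 per library with a median of 8583 to 17434 UMIs per cell. Cells were clustered without the member genes, and clusters were named from marker lists, so each class is called tumour-like, monocyte/macrophage-like, microglia-like, endothelial-like or T-like. Tumour-like cells numbered 2626 to 6268 per library, monocyte/macrophage-like cells 66 to 1805, microglia-like cells 151 to 877, T-like cells 39 to 1292 and endothelial-like cells 8 to 190. Unnamed cells were 26.3% of UT and 19.2% of IgG 1, against 0.827% of IgG 2. Some classes were held by different clusters in different libraries. Of microglia-like cells, a cluster led by Cxcl13, Cd36 and C1q genes held 126 in UT and 258 in BP 1, while a cluster led by Gpr34, P2ry12 and Tmem119 held 711 in IgG 2 and 855 in CD40. A macrophage-like cluster led by Ccl8, Ccl24, Chil3 and Mrc1 held 1653 cells of BP 1 and at most 5 of any other library. Most tumour-like cells lay in clusters held by 1 library or by consecutive ones. The largest tumour-like cluster of UT held 1496 of its cells and that of BP 1 held 4310, and IgG 1, BP 2 and BPI shared a cluster with 2184, 2159 and 1617 cells and another with 1970, 1397 and 1065. CD40 and IgG 2 shared others, the largest with 1773 and 2146 cells. Library names run consecutively for IgG 1, BP 2 and BPI and again for CD40 and IgG 2, and the barcodes of UT come from a list of their own. Pairs of libraries shared 0 to 27 cell barcodes.

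Levels below are UMIs scaled to 1000000 UMIs of that class in that library (CPM), and intervals are exact 95% Poisson intervals that cover counting error only. In tumour-like cells the regulatory member Irgm1 stood at 457 CPM in UT, 19.0 and 27.2 in IgG 1 and 2, 316 and 36.5 in BP 1 and 2, 74.2 in BPI and 30.8 in CD40. Igtp was also highest in UT and BP 1, at 334 in UT, 17.3 and 13.5 in IgG, 243 and 35.5 in BP, 93.0 in BPI and 16.6 in CD40. Irgm2 was at 85.8 in UT, 7.13 and 6.25 in IgG, 110 and 13.2 in BP, 26.3 in BPI and 8.26 in CD40. For all 3 regulators UT and BP 1 were the 2 highest libraries, and BP 2 lay nearer to the IgG libraries than to BP 1.

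Iigp1, the effector with the most tumour UMIs, stood at 992 CPM in UT, 194 and 82.6 in IgG, 1780 and 469 in BP, 1030 in BPI and 106 in CD40. It made up 38.9% to 61.6% of the family's UMIs in tumour-like cells, counted at the 3′ end and so not scaled by length. Ifi47 was at 205 in UT, 18.7 and 10.9 in IgG, 159 and 34.8 in BP, 95.9 in BPI and 15.3 in CD40. Gm4951 was at 302 in UT, 23.7 and 15.5 in IgG, 280 and 38.1 in BP, 86.1 in BPI and 22.2 in CD40. These 3 had BP above IgG in both libraries without overlap, as did 9.52% of all genes with a UMI, and CD40 close to the IgG values.

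F830016B08Rik kept another order in tumour-like cells: 43.6 and 8.36 CPM in IgG, 185 and 126 in BP, 365 in BPI and 13.5 in CD40, with UT just above BP 2. BPI was its highest library, and IgG 1 lay above IgG 2 by a larger ratio than for any other member. A tumour-like cluster of 1947 cells was led by F830016B08Rik, and 1384 of them were from BPI, 381 from BP 2 and 171 from IgG 1. Over tumour-like clusters the family ran from 49.2 to 3910 CPM. The clusters that hold most tumour-like cells of BP 1 and of IgG 2 are not shared, while IgG 1 and BP 2 share their 2 largest. BP against IgG in this class thus partly compares different clusters, and in that part cluster and treatment cannot be told apart. In the largest cluster of BP 1 the family was at 2960 CPM, in the 2 largest clusters of IgG 1, BP 2 and BPI at 507 and 530 CPM, in another they share, with 171, 381 and 1384 of their cells, at 3000 CPM, and in the largest cluster of CD40 and IgG 2 at 106 CPM. The sum of all 9 members in tumour-like cells was 2550 CPM in UT, 327 and 166 in IgG, 3110 and 761 in BP, 1790 in BPI and 216 in CD40.

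**Figure D1:**
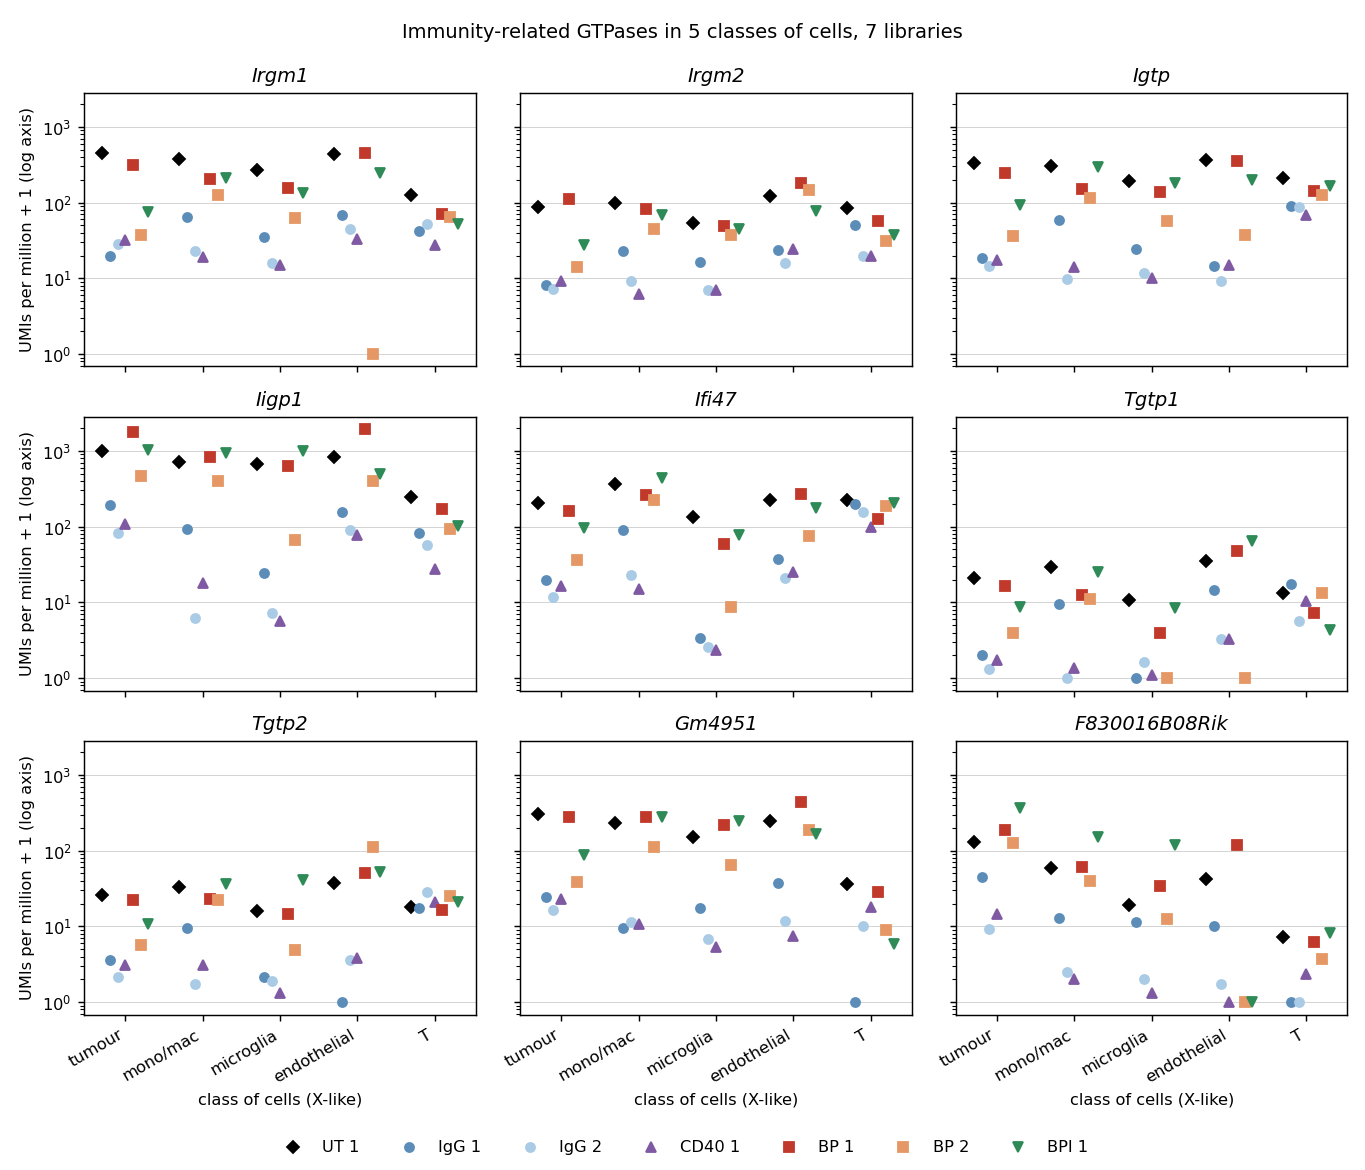
Level of each member by library and class, as CPM + 1 on a log axis, where each point is 1 library and class. In tumour-like, monocyte/macrophage-like and microglia-like cells UT and BPI stand above both IgG libraries for all 9 members, while the T-like points run flatter. Of all genes with a UMI, 38.7%, 30.7% and 22.2% did so for UT and 18%, 23.9% and 21.6% for BPI.

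In monocyte/macrophage-like cells UT was the highest library for all 3 regulators, and BPI came next for Irgm1 and Igtp. Irgm1 was at 380 CPM in UT, 64.1 and 22.2 in IgG, 202 and 123 in BP, 211 in BPI and 17.9 in CD40. Igtp was at 299 in UT, 57.3 and 8.89 in IgG, 149 and 114 in BP, 290 in BPI and 13.1 in CD40, and Irgm2 ran from 5.16 in CD40 to 97.4 in UT. BP 2 was here closer to BP 1 than in tumour-like cells.

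Among the macrophage effectors Iigp1 had the widest range, at 722 CPM in UT, 92.7 and 5.19 in IgG, 829 and 403 in BP, 932 in BPI and 17.2 in CD40. Estimated free RNA could supply 84.5% of its UMIs in IgG 2, where it was lowest, 23.7% in CD40 and 4.79% to 10.3% in the other libraries. Gm4951 was at 232 in UT, 8.43 and 10.4 in IgG, 280 and 110 in BP, 275 in BPI and 9.63 in CD40. Ifi47 was at 362 in UT, 89.4 and 22.2 in IgG, 258 and 222 in BP, 434 in BPI and 13.8 in CD40. F830016B08Rik ran from 1.03 in CD40 to 152 in BPI. IgG 1 was above IgG 2 for 8 of the 9 members (all genes 42%), and the IgG 2 values rest on 66 cells.

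Microglia-like cells had the lowest family sums of the 5 classes in IgG 1, IgG 2, BP 2 and CD40, at 47.8 CPM in IgG 2, 307 in BP 2 and 39.8 in CD40. Iigp1 was at 670 CPM in UT, 23.6 and 6.20 in IgG, 635 and 65.7 in BP, 991 in BPI and 4.60 in CD40. Irgm1 was at 268 in UT, 34.2 and 14.9 in IgG, 154 and 61.8 in BP, 134 in BPI and 13.8 in CD40. Ifi47 was at 135 in UT, 2.36 and 1.55 in IgG, 57.9 and 7.73 in BP, 77.3 in BPI and 1.36 in CD40. Estimated free RNA could supply 80.9%, 79.6% and 73.3% of the microglia-like Iigp1 UMIs in IgG 1, IgG 2 and CD40, 40.6% in BP 2, and 6.41% to 7.99% in UT, BP 1 and BPI. For Ifi47 it could supply 100% in IgG 1, 42.7% in IgG 2, 44.7% in BP 2, 54.8% in CD40 and 11.3% to 15.4% in UT, BP 1 and BPI. The microglia-like cluster led by Cxcl13 and C1q genes had 1310 CPM of the family over all libraries and the P2ry12 cluster 120 CPM. Both values are pooled over libraries that hold the clusters in different shares. The leading genes of the Cxcl13 cluster included none of the listed microglia markers. At a lower Leiden resolution the microglia-like cells of UT fell from 151 to 51, and its monocyte/macrophage-like cells rose from 575 to 676. BPI had 190 of its 213 microglia-like cells in the P2ry12 cluster and the highest microglia-like family sum, 1830 CPM.

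Endothelial-like cells included a cluster of 84 cells led by Rgs5 and Vtn, which are listed as markers of mural (vessel-wall) cells. In the class as a whole, Iigp1 was at 821 CPM in UT, 154 and 89.0 in IgG, 1930 and 405 in BP, 500 in BPI and 75.6 in CD40. Estimated free RNA could supply 58.8% of these UMIs in IgG 1 and 7.68% to 16.4% in the other libraries, with no estimate for BP 2. Irgm1 was at 435 in UT, 67.8 and 43.7 in IgG, 454 in BP 1, 244 in BPI and 32.0 in CD40. It had 0 UMIs in the 8 cells of BP 2, where a floor of 3 UMIs would be 110 CPM. No test was made, because IgG 1 and BP 2 had only 13 and 8 such cells. In UT, BP 1, IgG 2 and CD40, with 49 to 190 cells each, the family sum was 2320, 3830, 192 and 181 CPM.

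T-like cells had a narrower range. Their family sum was 962 CPM in UT, 491 and 411 in IgG, 617 and 540 in BP, 593 in BPI and 284 in CD40. Ifi47, with 20.2% to 40.0% of the family's UMIs there (Iigp1 had the larger share in UT and BP 1), was at 227 CPM in UT, 197 and 157 in IgG, 124 and 184 in BP, 206 in BPI and 98.4 in CD40. Its BP values lay across and below the IgG values. Igtp was at 213 in UT, 90.1 and 87.7 in IgG, 140 and 124 in BP, 165 in BPI and 66.5 in CD40. Iigp1 was at 244 in UT, 81.9 and 55.4 in IgG, 171 and 91.8 in BP, 99.5 in BPI and 26.6 in CD40. Of these Iigp1 UMIs estimated free RNA could supply 50.1% in BPI, 31.3% in BP 1, 27.5% in BP 2, 15.9% in UT, 7.13% in CD40 and 4.08% in IgG 2, with no estimate for IgG 1. For Ifi47 in T-like cells it was 0.193% to 6.93%. F830016B08Rik had 0 UMIs in the T-like cells of both IgG libraries, where a floor of 3 UMIs would be 24.6 and 13.8 CPM. It was at most 7.11 CPM elsewhere.

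Tgtp1 and Tgtp2 are near copies, and their single values are uncertain. Of the 60-base words in the last 500 bases of Tgtp1 transcripts, 73.4% also occur in Tgtp2, and 71.7% of those of Tgtp2 occur in Tgtp1. Their sum in tumour-like cells was 44.9 CPM in UT, 3.61 and 1.45 in IgG, 37.0 and 7.50 in BP, 17.4 in BPI and 2.80 in CD40. The sum in T-like cells was 21.9 to 36.5 CPM in all 7 libraries, with the 2 BP libraries at both ends. F830016B08Rik shares 9.98% of such words with Gm10780 and Ifi47 3.89% with Olfr56, and Irgm2, Igtp, Iigp1 and Gm4951 share none.

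The order of the classes differed between members. By mean log2(CPM + 1) over the 7 libraries, tumour-like cells came highest for Iigp1 and F830016B08Rik, monocyte/macrophage-like cells for Irgm1, endothelial-like cells for Irgm2, Tgtp1 and Gm4951, and T-like cells for Igtp, Ifi47 and Tgtp2. F830016B08Rik was higher in tumour-like than in monocyte/macrophage-like cells in all 7 libraries, by 1.75 ± 0.56 (SD, n = 7) on the log2 scale. In turn it was higher in monocyte/macrophage-like than in microglia-like cells in all 7, by 0.79 ± 0.63. The latter order rests on few UMIs in CD40 and IgG 2, at 1.03 and 1.48 CPM against 0.314 and 1.03. Estimated free RNA could supply 38.3% and 27.4% of the monocyte/macrophage-like F830016B08Rik UMIs there, and 100% and 44.2% of the microglia-like ones. Ifi47 was higher in endothelial-like than in tumour-like cells by 0.74 ± 0.30 and higher in tumour-like than in microglia-like cells by 1.71 ± 0.96, again in all 7 libraries. The endothelial-like values of BP 2 and IgG 1 rest on 8 and 13 cells, at 73.6 and 36.1 CPM against 34.8 and 18.7 in tumour-like cells. Estimated free RNA could supply 31.5% of these endothelial-like UMIs in IgG 1, with no estimate for BP 2. Each of these 4 class differences reached the smallest p that 7 libraries allow, 0.0156 in a two-sided exact permutation test. None of the 36 neighbouring pairs passed Benjamini-Hochberg adjustment over the 36 tests (lowest adjusted p = 0.141 by the exact permutation test), and 6 had an unadjusted p under 0.05. With 36 tests, a few pairs at the smallest p could not pass, so the lack of calls does not show equal levels. The neighbours were also taken from the mean order in these same libraries.

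The first question was whether the B20 and anti-PD-L1 pair (BP) moved the family against isotype control (IgG). Both BP libraries stood above both IgG libraries for 9 of 9 members in tumour-like cells, where 9.52% of all genes with a UMI did so, and for 9 of 9 in monocyte/macrophage-like cells (all genes 13%). The same held for 8 of 9 in microglia-like cells (all genes 10.4%), 6 of 9 in endothelial-like cells (12.5%) and 4 of 9 in T-like cells (23.4%). The 2 BP libraries were far apart, though. Iigp1 averaged 138 ± 78.8 CPM in IgG and 1120 ± 927 in BP in tumour-like cells (SD, n = 2 each). In monocyte/macrophage-like cells it averaged 48.9 ± 61.9 and 616 ± 301, in microglia-like cells 14.9 ± 12.3 and 350 ± 403, and in T-like cells 68.7 ± 18.7 and 131 ± 56.0.

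No member passed edgeR's quasi-likelihood test for BP against IgG in any of the 4 classes tested, at an adjusted p of 0.05. In tumour-like, monocyte/macrophage-like and microglia-like cells 0% of all genes passed either, against 1.15% in T-like cells. At an unadjusted p under 0.05, 9 of 9 members were higher in tumour-like cells (1.73% of all genes), 8 of 9 in monocyte/macrophage-like cells (4.82%), 8 of 9 in microglia-like cells (2.56%) and 0 of 8 tested in T-like cells (5.8%). DESeq2, the other tool run, called 4, 3, 3 and 0 members in these classes, and 0.393%, 1.1%, 0.439% and 0.498% of all genes to which it gave an adjusted p. In T-like cells those were 2412 genes, against 9162 tested by edgeR, and in microglia-like cells they included 8 of the 9 members.

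In tumour-like cells the log2 differences between BP and IgG were close to each other. For the regulators they were 2.82 ± 0.95 (SE) for Irgm1, 3.08 ± 0.95 for Irgm2 and 3.06 ± 0.88 for Igtp. For the effectors and their relatives they were 2.90 ± 0.79 for Iigp1, 2.60 ± 0.75 for Ifi47, 3.62 ± 1.06 for Tgtp1, 2.69 ± 0.87 for Tgtp2, 2.89 ± 0.92 for Gm4951 and 2.50 ± 0.85 for F830016B08Rik. The median was 2.89, against 0.00 over all genes tested, with an adjusted p of 1 for every member (edgeR).

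In monocyte/macrophage-like cells the effectors spread more widely. The differences were 2.05 ± 0.55 for Irgm1, 2.27 ± 0.53 for Irgm2 and 2.18 ± 0.73 for Igtp, and 2.25 ± 0.64 for Ifi47, 1.91 ± 1.08 for Tgtp1 and 2.72 ± 0.81 for Tgtp2. The chromosome 18 members had the highest values: 4.40 ± 0.55 for Gm4951, 3.78 ± 1.07 for Iigp1 and 3.32 ± 0.71 for F830016B08Rik. The median was 2.27, against 0.04 over all genes, with adjusted p from 0.189 to 0.737 (edgeR). Most monocyte/macrophage-like cells of BP 1 lay in the cluster led by Ccl8 and Ccl24, which held few cells of any other library. Pooled over libraries, the family was at 1890 CPM in that cluster and at 1530 CPM in the cluster led by Ms4a4c and Cxcl2. These differences thus partly compare clusters, and in that part cluster and treatment cannot be told apart.

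In microglia-like cells the differences were 2.32 ± 0.58 for Irgm1, 2.25 ± 0.51 for Irgm2, 2.68 ± 0.57 for Igtp, 4.83 ± 1.20 for Iigp1 and 4.42 ± 0.93 for Ifi47. The rest were 1.94 ± 1.63 for Tgtp1, 3.37 ± 0.81 for Tgtp2, 3.97 ± 0.77 for Gm4951 and 2.91 ± 1.04 for F830016B08Rik. The median was 2.91, against -0.04 over all genes, with adjusted p from 0.853 to 0.995 (edgeR). Most microglia-like cells of BP 1 lay in the Cxcl13 cluster and most of IgG 2 in the P2ry12 cluster. These differences thus partly compare clusters, and in that part cluster and treatment cannot be told apart.

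In T-like cells the differences were small: 0.34 ± 0.53 for Irgm1, 0.32 ± 0.60 for Irgm2, 0.40 ± 0.45 for Igtp, 0.79 ± 0.48 for Iigp1 and 1.48 ± 1.12 for Gm4951. They were below 0 for Ifi47 at -0.32 ± 0.43, Tgtp1 at -0.27 ± 1.38 and Tgtp2 at -0.47 ± 0.74, and F830016B08Rik had too few UMIs for the test. The median was 0.33, against 0.05 over all genes, with adjusted p from 0.778 to 0.986 (edgeR).

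**Figure D2:**
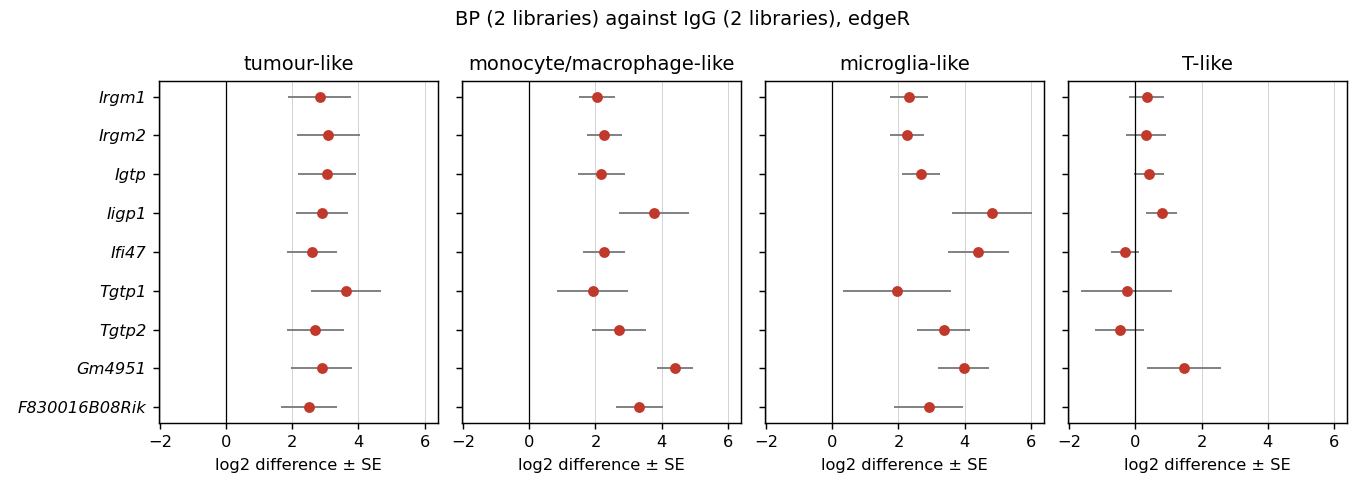
Log2 difference between BP and IgG for each member in the 4 classes tested (points, with bars of 1 SE from edgeR's fit; the vertical line marks 0). The tumour-like, monocyte/macrophage-like and microglia-like points lie between 1.91 and 4.83, and the T-like points between -0.47 and 1.48.

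These values lean on the controls chosen and on single libraries. With UT counted as control beside IgG, the median difference of the members fell to 0.39 in tumour-like, 0.30 in monocyte/macrophage-like and 0.54 in microglia-like cells and to -0.39 in T-like cells. Without IgG 1, all 9 members were called in monocyte/macrophage-like cells (3.19% of all genes), and without BP 2, 8 were called there (6.07%) and 8 in microglia-like cells (6.61%); with 1 library left in a group, that library was assumed to vary like the others. With a term for the library set (IgG 1, BP 2 and BPI against the rest), 8 members and 5.5% of all genes were called in monocyte/macrophage-like cells.

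Within the consecutive libraries IgG 1, BP 2 and BPI, tumour Iigp1 was 2.41-fold higher in BP 2 than in IgG 1 (interval 2.36 to 2.46) and 5.32-fold higher in BPI than in IgG 1 (5.22 to 5.42). In the same pair of BP 2 and IgG 1, Iigp1 was 4.34-fold higher in monocyte/macrophage-like cells (3.29 to 5.83), 2.78-fold higher in microglia-like cells (1.56 to 5.10), and at a ratio of 1.12 in T-like cells (0.574 to 2.44). The 9 members in monocyte/macrophage-like cells ran from 1.18 for Tgtp1 (0.415 to 4.13) to 13.0 for Gm4951 (5.48 to 40.6) in that pair. These ratios compare single libraries.

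The share of T-like cells was higher in UT, BP and BPI than in IgG, and its part in the result was not tested. T-like cells were 5.12% of UT, 0.656% and 0.761% of IgG 1 and 2, 13.4% and 3.97% of BP 1 and 2, 8.95% of BPI and 1.66% of CD40. CD40 stood above both IgG libraries in this share. Its family sum was the lowest of all libraries in microglia-like (39.8 CPM), endothelial-like (181) and T-like cells (284). In tumour-like and monocyte/macrophage-like cells the lowest family sum was in IgG 2, at 166 and 79.3 CPM. Monocyte/macrophage-like cells were 10.7% of UT, 1.31% and 0.881% of IgG, 18.7% and 4.55% of BP, 9.59% of BPI and 2.19% of CD40.

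Shares of cells with a UMI were compared at equal depth. Each cell was thinned to 1000 UMIs, which left out no cell. Iigp1 was then seen in 51.9% of tumour-like cells in UT, 14.8% and 4.82% in IgG, 76.1% and 28.3% in BP, 50.6% in BPI and 4.79% in CD40. Unthinned, these shares were 95.3%, 62.6%, 25.2%, 99.1%, 72.3%, 89.4% and 27.2%. Thinned microglia-like cells with Iigp1 were 25.8% in UT, 0.645% and 0.270% in IgG, 41.0% and 3.64% in BP, 31.5% in BPI and 0.456% in CD40. Unthinned they were 49.7%, 9.68%, 2.02%, 80.5%, 10.3%, 43.2% and 2.39%. Ifi47 in thinned T-like cells ranged only from 9.30% in CD40 to 23.1% in IgG 1, and unthinned from 29.8% in IgG 2 to 65.5% in UT. Estimated free RNA could supply 2.44% to 8.5% of the tumour-like Iigp1 UMIs, and the estimates for the other classes are given above.

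**Figure D3:**
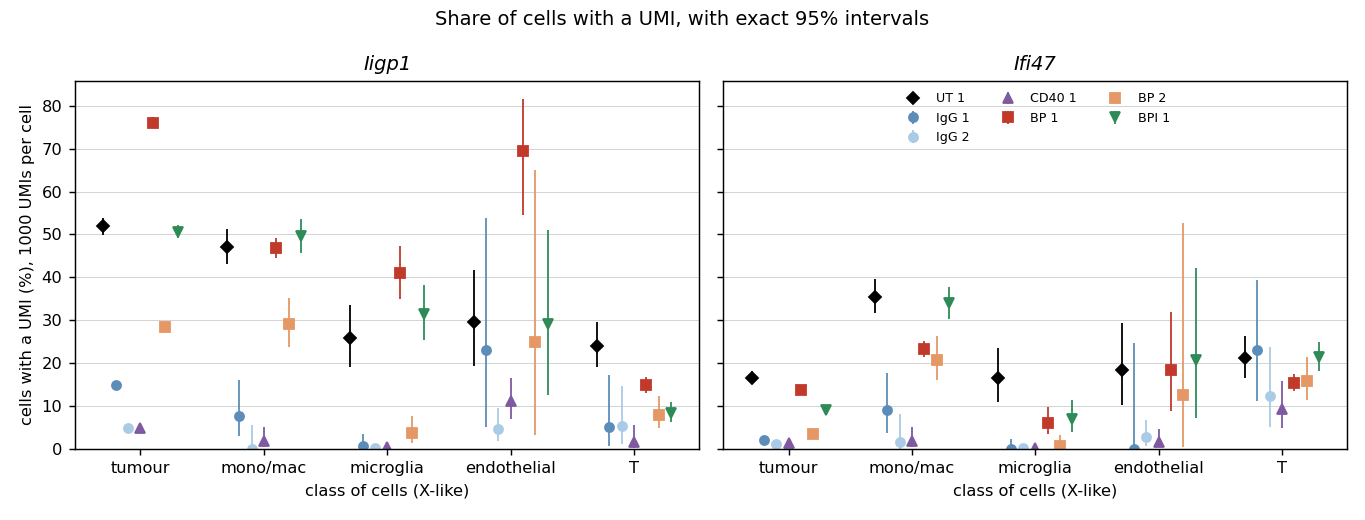
Percent of cells with at least 1 UMI of Iigp1 and of Ifi47 after thinning each cell to 1000 UMIs, by library and class, with exact 95% binomial intervals. Iigp1 runs from 4.79% to 76.1% of tumour-like cells, while Ifi47 in T-like cells runs from 9.30% to 23.1%.

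The next comparison asked what IPI-145 added. BPI was above both IgG libraries for 9 of 9 members in tumour-like, monocyte/macrophage-like and microglia-like cells and for 5 of 9 in T-like cells, where 18%, 23.9%, 21.6% and 42.7% of all genes with a UMI in these libraries were. No member passed the test against IgG (edgeR). DESeq2 called 0, 7, 5 and 0 members in these 4 classes, and 0.0294%, 2.59%, 0.161% and 0.352% of all genes to which it gave an adjusted p. By edgeR 0% of all genes passed in the first 3 classes and 0.622% in T-like cells. At an unadjusted p under 0.05, 6, 9 and 8 members were higher in tumour-like, monocyte/macrophage-like and microglia-like cells and 0 in T-like cells, where 0.774%, 7.93%, 1.59% and 4.85% of all genes were. Among members with an average log2 CPM of at least 5, the one furthest from IgG was F830016B08Rik in tumour-like cells, at 3.97 ± 0.97 (adjusted p = 1, edgeR), and in monocyte/macrophage-like cells, at 5.39 ± 0.76 (adjusted p = 0.0573, edgeR). In microglia-like cells it was Iigp1, at 6.41 ± 1.34, and in T-like cells Igtp, at 0.98 ± 0.51 (adjusted p = 1 and 0.752, edgeR).

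Against BP, BPI showed no called member by edgeR or DESeq2 (1 monocyte/macrophage-like and 2 microglia-like members at an unadjusted p under 0.05, 0 in the other classes). Among all genes 0.0392%, 1.16%, 1.25% and 0.764% were higher at that threshold in tumour-like, monocyte/macrophage-like, microglia-like and T-like cells, and 0%, 0%, 0% and 0.196% passed after adjustment. The median difference was -0.13 in tumour-like, 1.11 in monocyte/macrophage-like, 1.18 in microglia-like and -0.05 in T-like cells. Over all settings run these medians ranged from -0.8 to 1.28, 0.73 to 1.41, 0.53 to 2.8 and -0.22 to 0.39, so the tumour-like and T-like signs were not stable. Among members with an average log2 CPM of at least 5, F830016B08Rik in monocyte/macrophage-like cells was furthest from BP, at 2.06 ± 0.60 (adjusted p = 0.999, edgeR). BPI was above BP 2 for 9 of 9 members in tumour-like, monocyte/macrophage-like and microglia-like cells (all genes 36.1%, 41.2% and 45.4%). BP 1 was also above BP 2 for 9 of 9 there (all genes 61.6%, 66.5% and 56.4%). BPI was above both BP libraries for 1 of 9 members in tumour-like cells, which was F830016B08Rik, and for 7 of 9 in monocyte/macrophage-like and 7 of 9 in microglia-like cells (all genes 16.9%, 18.2% and 24.4%).

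The CD40 library was then set against isotype control. In tumour-like cells all 9 members were higher in CD40 than in IgG 2, the library with the next name, from 1.13-fold for Irgm1 (1.08 to 1.19) to 2.26-fold for Tgtp1 (1.53 to 3.40), with counting intervals only, and 62.7% of all genes were higher there too. Iigp1 in CD40 against IgG 2 was at a ratio of 1.29 there (1.25 to 1.32), 3.31 in monocyte/macrophage-like (1.5 to 8.66), 0.743 in microglia-like (0.482 to 1.14) and 0.480 in T-like cells (0.223 to 1.08). Of the monocyte/macrophage-like Iigp1 UMIs, estimated free RNA could supply 84.5% in IgG 2 and 23.7% in CD40. CD40 was above both IgG libraries for 2 of 9 members in tumour-like cells (all genes 46.6%). In microglia-like cells the CD40 library was below both IgG libraries for 7 of 9 members (all genes 23%), and in monocyte/macrophage-like cells for 4 of 9 (all genes 20.9%). The median difference from IgG was -0.04 in tumour-like, -1.41 in monocyte/macrophage-like, -1.11 in microglia-like and -0.65 in T-like cells. Over all settings run these medians ranged from -2.46 to 0.42, -3.53 to -0.08, -3.94 to -0.46 and -1.07 to -0.3. The lower ends came with UT counted as control. No member passed the test by edgeR or DESeq2, and at an unadjusted p under 0.05, 1 was lower in monocyte/macrophage-like and 1 in T-like cells and 0 in the others (all genes 0.43%, 1.12%, and 0.0343% in tumour-like and 0.266% in microglia-like cells). All genes passed the adjusted threshold in 0% of cases in the first 3 classes and 0.131% in T-like cells. Among members with an average log2 CPM of at least 5, the largest differences were -1.14 ± 1.04 for F830016B08Rik in tumour-like cells, -2.30 ± 1.18 for F830016B08Rik in monocyte/macrophage-like cells, -1.44 ± 1.41 for Iigp1 in microglia-like cells and -1.40 ± 0.64 for Iigp1 in T-like cells (adjusted p = 1 for each, edgeR). The tumour-like value turned to 0.62 without IgG 1.

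The untreated library was then set against isotype control. UT was above both IgG libraries for 9 of 9 members in tumour-like, monocyte/macrophage-like, microglia-like and endothelial-like cells, where 38.7%, 30.7%, 22.2% and 39.8% of all genes were, and for 7 of 9 in T-like cells (all genes 48.8%). The median difference from IgG was 3.73 in tumour-like, 3.59 in monocyte/macrophage-like, 4.04 in microglia-like and 1.27 in T-like cells. At an unadjusted p under 0.05, 8 of 9, 9 of 9, 7 of 8 and 5 of 8 members tested were higher in these classes, as were 5.99%, 7.36%, 6.3% and 7.93% of all genes. Gm4951 rose in monocyte/macrophage-like cells, by 4.95 ± 0.60 (adjusted p = 0.0407, edgeR), where 0.225% of all genes were called. Iigp1 rose in T-like cells, by 1.80 ± 0.52 (adjusted p = 0.0277, edgeR), where 2.85% of all genes were called. In tumour-like and microglia-like cells 0 members and 0% of all genes passed. The Iigp1 call was lost in DESeq2, without IgG 1, without IgG 2, with doublets kept and with free RNA subtracted, and the Gm4951 call was lost with size factors by relative log expression and with interferon genes left out of the clustering. UT comes from 1 library with its own barcode list, so treatment and library cannot be told apart.

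The pathway above the family was described with lists of its known genes. Ifng, which encodes interferon-gamma, was read in T-like and NK-like cells and was at most 3.45 CPM in the endothelial-like, tumour-like and myeloid classes. In T-like cells it was at 287 CPM in UT, 57.3 and 87.7 in IgG, 338 and 405 in BP, 1580 in BPI and 37.2 in CD40. Ifng rose in T-like cells in BP against IgG by 2.16 ± 0.50 (adjusted p = 0.0069, edgeR) and in BPI against IgG by 4.48 ± 0.56 (adjusted p = 3.41e-10, edgeR). BPI was also above BP by 2.32 ± 0.49 (adjusted p = 0.00342, edgeR). The BP call was lost without IgG 1 (adjusted p = 0.382), without IgG 2 (0.512), with doublets kept (0.153) and with UT counted as control (0.999), all by edgeR. The BPI against IgG call for Ifng was lost with UT counted as control (adjusted p = 0.0548, edgeR). The BPI against BP call was lost in DESeq2 (adjusted p = 0.0793), without BP 1 (0.0566), without IgG 1 (0.0788), without IgG 2 (0.0936), with a term for the library set (0.218), with doublets kept and with UT counted as control. BPI had the highest Ifng in T-like cells. It also had the highest family sums in monocyte/macrophage-like (2420 CPM) and microglia-like cells (1830 CPM), while those in tumour-like cells were in BP 1 and UT. Of the BP libraries, BP 2 had the higher T-like Ifng. BP 1 was the higher for 9 of 9 members in tumour-like, monocyte/macrophage-like and microglia-like cells (all genes 61.6%, 66.5% and 56.4%). A link between Ifng and the family was not tested. In NK-like cells Ifng was at 124 CPM in UT, 155 and 256 in IgG, 73.5 and 191 in BP, 219 in BPI and 94.9 in CD40, so BP and IgG overlapped there, with means of 206 ± 71.4 in IgG and 132 ± 83.1 in BP (SD, n = 2 each).

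Of the receptor genes in tumour-like cells, Ifngr1 lay between 24.9 and 32.5 CPM over all 7 libraries and Ifngr2 between 31.3 in BPI and 84.9 in UT. Irf1, a transcription factor that drives further interferon genes, was at 183 in UT, 21.2 and 23.5 in IgG, 163 and 34.2 in BP, 51.8 in BPI and 24.5 in CD40 in tumour-like cells.

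Of the 14 interferon-gamma signalling genes, 0 passed for BP against IgG in tumour-like, monocyte/macrophage-like or microglia-like cells (5, 8 and 6 at an unadjusted p under 0.05), and in T-like cells 1 did, which was Ifng (edgeR). Their median differences were 1.55, 1.87, 0.78 and 0.24 in the 4 classes, with 14 genes tested in tumour-like cells and 13 in each other class. Among all genes 1.73%, 4.82%, 2.56% and 5.8% were higher at that unadjusted p in the 4 classes. The 10 guanylate-binding proteins in the files, a sister family of interferon-induced GTPases, had medians of 3.64, 4.05, 4.70 and 0.21. Of them 0 passed and 6, 10, 10 and 2 were higher at an unadjusted p under 0.05, with 9 tested in T-like cells. The 13 type I interferon antiviral genes had medians of 2.38, 0.97, 0.78 and -0.13, with 0 passing and 11, 0, 2 and 0 higher at an unadjusted p under 0.05. Genes of the autophagy conjugation machinery, which helps to place IRG proteins on vacuoles, had medians of -0.05, 0.23, -0.02 and -0.10 with 0 of 10 passing and 0 at an unadjusted p under 0.05. Other IRG loci in the files numbered 6, of which 5, 5, 5 and 2 were tested in the 4 classes, with medians of 3.92, 1.07, 0.71 and -0.32, 0 passing and 2, 2, 1 and 0 higher at an unadjusted p under 0.05.

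**Figure D4:**
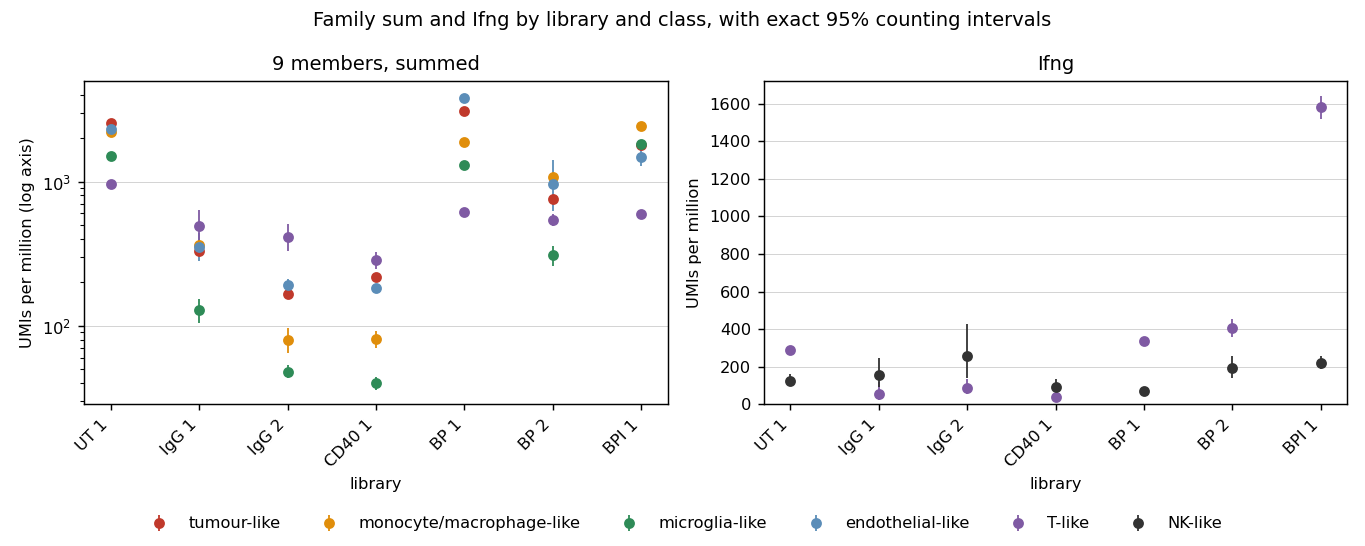
Sum of the 9 members by library and class on a log axis, and Ifng in T-like and NK-like cells on a linear axis, in CPM with exact 95% Poisson intervals. Ifng in T-like cells reaches 1580 CPM in BPI, while the family sum in tumour-like cells is 3110 CPM in BP 1 and 1790 in BPI.

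Members followed each other across the 33 library and class pairs with at least 20 cells, and the points share libraries. The lowest correlation between 2 members was 0.339 (Tgtp1 with F830016B08Rik), the median 0.786 and the highest 0.938 (Igtp with Tgtp2). Among 7348 genes, those most like the mean profile of the members were Gbp3 (Pearson r = 0.951), Gbp2 (0.95), Tap1 (0.928), Rnf213 (0.910), Psmb9 (0.907), Tap2 (0.897), Oasl2 (0.891), Gbp6 (0.888), Gbp7 (0.886) and Xaf1 (0.886). Gbp2, Gbp3, Gbp6 and Gbp7 are guanylate-binding proteins, and Tap1, Tap2 and Psmb9 serve antigen processing for MHC class I. The correlations are across pairs of library and class and describe these libraries.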

How the data were processed

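UMI counts per gene and barcode were deposited unnormalized by the authors for all barcodes. The file headers name Cell Ranger 4 and the submitters' processing notes 7.0.1, on mm10 (GRCm38). The labels give V2 chemistry for all libraries, although UT lists 713553 barcodes from another list than the other 6 libraries (1487060 to 2310016). Total depth was 68997476 to 186793886 UMIs per library.

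Cells were barcodes with 1000 UMIs or more, 500 genes or more and no more than 15% mitochondrial UMIs (51795), of which 3207 were removed as the highest Scrublet scores, 0.8% per 1000 cells. Clustering (scanpy 1.11.5, 2000 variable genes without the members, 30 components, 15 neighbours, Leiden resolution 1) gave 45 clusters, of which 39 were named. The counts of each class in a library were added up and entered edgeR 4.0.16's quasi-likelihood test (R 4.3.3, TMM, filterByExpr, Benjamini-Hochberg over all genes of a class and contrast). IgG, BP, BPI and CD40 shared 1 fit, UT against IgG used all 7 libraries, and lone libraries take the spread of IgG and BP. Free RNA was estimated from barcodes with at most 100 UMIs. P-values measure the spread between libraries. Alternatives included DESeq2 1.42.0. All 9 members were described whatever their values, and for contrasts other than BP against IgG the member that passed, or else the one with the largest difference at an average log2 CPM of at least 5, was named. The members and lists were chosen with earlier results of these data known. A gene planned to be given by value is not reported here. Scripts were tested on simulated data.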

Additional observations from a re-analysis of the deposited data

Results flagged for a closer look

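The difference between BP and IgG was larger in another class than in T-like cells for 7 member and class pairs, by a test of the difference itself (edgeR, both classes in 1 fit with the library as a term). That test was chosen after seeing the data, has 2 residual degrees of freedom and takes its spread from all genes. Ifi47, an effector, exceeded its T-like difference by 2.48 ± 0.55 (SE) in tumour-like cells (adjusted p = 0.00484), by 2.87 ± 0.50 in monocyte/macrophage-like cells (adjusted p = 4.85e-06) and by 4.43 ± 0.77 in microglia-like cells (adjusted p = 1.46e-05, edgeR). Estimated free RNA could supply 42.7% to 100% of the microglia-like Ifi47 UMIs in IgG 1, IgG 2 and BP 2, and with it subtracted the difference was 5.25 ± 1.02 (adjusted p = 0.00287, edgeR). Iigp1 exceeded it by 3.62 ± 0.58 in monocyte/macrophage-like cells (adjusted p = 4.63e-07) and by 3.39 ± 0.76 in microglia-like cells (adjusted p = 0.00249, edgeR). In monocyte/macrophage-like cells Igtp exceeded it by 2.11 ± 0.55 (adjusted p = 0.0117) and Tgtp2 by 3.34 ± 0.99 (adjusted p = 0.0410, edgeR). The Tgtp2 levels in IgG rest on few UMIs, at 8.43 and 0.741 CPM in monocyte/macrophage-like and 16.4 and 27.7 in T-like cells. Its reads may also be shared with Tgtp1. All 7 pairs share the T-like IgG baseline of 39 and 57 cells. In tumour-like, monocyte/macrophage-like and microglia-like cells the BP and IgG libraries also lay partly in different clusters. Of all genes 0.39%, 1.82% and 0.767% differed in this way in the 3 classes. Without IgG 2, 0 members differed in any of the 3 classes, and with doublets kept 1, 0 and 0 did.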

How the results depend on the processing

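Of the log2 differences of members between BP and IgG over 17 alternative settings, 1 of 153 in tumour-like, 3 of 153 in monocyte/macrophage-like, 2 of 146 in microglia-like and 14 of 131 in T-like cells changed sign, and 4, 47, 20 and 0 passed the threshold where they had not. No paired reading of the title numbers holds: same-numbered IgG and BP libraries deviated with a correlation of -0.706 in tumour-like, -0.241 in monocyte/macrophage-like, 0.0411 in microglia-like and -0.0497 in T-like cells. The replicate block gave 3 called members in monocyte/macrophage-like (0.847% of all genes) and 1 in microglia-like cells (0.0552%), and the crossed replicate block, added after seeing the data, 8 in monocyte/macrophage-like cells (5.51%). Ifng in T-like cells lost its BP call in the replicate block (adjusted p = 0.345, edgeR). Depth limits endothelial-like cells and the Tgtp1, Tgtp2 and T-like F830016B08Rik values, which rest on few UMIs.

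Members called changed as follows, given for BP, BPI and UT against IgG in turn, with the share of all genes called by the same fit in parentheses. DESeq2 called 4 for BP (0.393%) and 8 for UT (4.56%) in tumour-like, 3, 7 and 6 (1.1%, 2.59% and 2.29%) in monocyte/macrophage-like, 3, 5 and 4 (0.439%, 0.161% and 1.41%) in microglia-like cells, and 0 for UT (1.8%) in T-like cells. Without the filter on low counts the numbers were 8, 9 and 9 (1.97%, 2.79% and 2.93%) in monocyte/macrophage-like and 8, 8 and 8 (1.4%, 0.57% and 2.19%) in microglia-like cells, with 1 for BPI against BP in each (0.309% and 0.181%). Leaving out 1 replicate gave 0 to 9, 2 to 9 and 1 to 9 (0% to 6.07%, 0.124% to 6.7% and 0.786% to 7.51%) in monocyte/macrophage-like, 0 to 8 in each contrast (0% to 6.61%, 0% to 1.2% and 0% to 6.73%) in microglia-like cells, and 0 to 1 for UT (0.531% to 4.65%) in T-like cells. A term for the library set gave 8 for BP (5.5%) and 9 for BPI (4.73%) in monocyte/macrophage-like cells, doublets kept 1 for BPI there (0.19%) and 0 for UT in T-like cells (0.125%). In UT the count was 0 in monocyte/macrophage-like cells with size factors by relative log expression (0.0241%) or interferon genes out of the clustering (0.0238%), and 0 in T-like cells with free RNA subtracted (1.83%). Members differing from T-like cells numbered 3 in tumour-like cells with relative log expression (0.64%), 2 there and 2 in monocyte/macrophage-like cells with free RNA subtracted (0.825% and 1.17%), 2 in the latter without the filter (0.835%), 0 in monocyte/macrophage-like and microglia-like cells with doublets kept (0.191% and 0.0499%), and 0 to 5, 0 to 4 and 0 to 5 in tumour-like, monocyte/macrophage-like and microglia-like cells leaving out 1 replicate (0.157% to 1.36%, 0.267% to 3.09% and 0.122% to 2.94%). The causes were not tested.

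Signs turned as follows. With UT counted as control, BP against IgG gave Irgm1 -0.012 in tumour-like cells, Irgm1 -0.16, Tgtp1 -0.52 and Igtp -0.11 in monocyte/macrophage-like, Irgm1 -0.13 and Ifi47 -0.53 in microglia-like, and Irgm1 -0.41, Igtp -0.20, Irgm2 -0.51, Gm4951 -0.38 and Iigp1 -0.23 in T-like cells. In T-like cells leaving out 1 replicate gave Tgtp1 -1.03 to 0.41, Tgtp2 -0.95 to 0.11, Ifi47 -0.84 to 0.072 and Irgm2 -0.30 to 0.97, and doublets kept gave Tgtp1 0.67, Tgtp2 0.30 and Ifi47 0.39. F830016B08Rik for CD40 against IgG in tumour-like cells ran from -1.92 without IgG 2 to 0.62 without IgG 1. Between classes, log2(CPM + 5) gave Irgm1 -0.18 (tumour-like minus endothelial-like), Iigp1 -0.05 (T-like minus microglia-like), Tgtp1 -0.01 (T-like minus monocyte/macrophage-like) and Gm4951 -0.04 (tumour-like minus monocyte/macrophage-like). Libraries with 20 cells in both classes gave Irgm1 -0.57 (tumour-like minus endothelial-like), Igtp -0.19 (monocyte/macrophage-like minus endothelial-like) and Gm4951 -0.16 (endothelial-like minus tumour-like), and free RNA subtracted gave Irgm1 -0.09 (tumour-like minus endothelial-like).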

Other observations

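Isg15, a ubiquitin-like protein induced by type I interferon, was at 2770 CPM in UT, 1360 and 209 in IgG 1 and 2, 472 and 1890 in BP 1 and 2, 2700 in BPI and 56.0 in CD40 in monocyte/macrophage-like cells. There BP 1 lay below IgG 1 for Isg15, while Iigp1 was at 829 CPM in BP 1 and 92.7 in IgG 1. In CD40 against IgG the 13 genes of the type I list had a median log2 difference of -3.81 in monocyte/macrophage-like cells, with 0 called (edgeR) and 10 lower at an unadjusted p under 0.05, where 0.43% of all genes were lower. The median of the IRG members in that comparison was -1.41, with a range of -3.53 to -0.08 over all settings run.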
